A study of Mus musculus with 48 samples.

Results

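The 16 progenitor libraries described here come from clonal mouse cultures that differ in the level of Flt3, the receptor tyrosine kinase for the cytokine Flt3 ligand. The series holds 48 RNA-seq libraries of 24 ER-Hoxb8 clones, each with 1 library of progenitors and 1 of monocytes. The groups were chosen by a measured value: within clones 1 to 13 and within clones 15 to 26, the 4 progenitor libraries with the highest Flt3 level made up the high-Flt3 group (n = 8) and the 4 with the lowest the low-Flt3 group (n = 8). Clones 21 and 24 were left out before ranking, and 6 clones lay between the groups. Both groups therefore share the same labels: bone marrow of mouse, ER-Hoxb8, granulocyte-monocyte progenitor, grown in serum-containing RPMI with stem cell factor, with no treatment or genotype that separates high from low. ER-Hoxb8 is a Hoxb8 protein fused to an estrogen receptor domain, which holds myeloid progenitors in division while estrogen is supplied. Each library is 1 clone, so the spread within a group is the spread between clones. The labels give no meaning for the numbering of the clones.

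Flt3 is carried by multipotent and lymphoid-primed progenitors and by part of the granulocyte-monocyte progenitors of the bone marrow, and it is lost as these cells mature into monocytes and granulocytes, while dendritic cell precursors keep it. Binding of its ligand activates the kinase, which signals through the PI3K, MAPK and Stat5 branches. The adaptor Cbl marks the active receptor for degradation.

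Flt3 (chr5:147330741-147400489, minus strand, mm10) was at 22.2, 25.5, 27.96 and 26.6 TPM in the high-Flt3 clones 3, 4, 6 and 8. In the low-Flt3 clones 5, 7, 9 and 11 of the same set it was at 8.77, 13.3, 8.97 and 8.62 TPM. Among clones 15 to 26, the high-Flt3 clones 15, 16, 17 and 22 held 34.6, 26.5, 29.9 and 27.1 TPM, and the low-Flt3 clones 18, 19, 20 and 23 held 15.1, 17.03, 22.2 and 21.5 TPM. TPM is a length-corrected share of a library's transcripts. The low group of the later clones thus reached the level of the lowest high clone of the earlier ones (22.2 TPM in clone 20 and 22.2 TPM in clone 3), and the contrast was wider in clones 1 to 13. At the edges of the groups, clone 13 held 19.8 TPM below clone 3, clone 10 held 14.9 TPM above clone 7, and clone 26, the only one between the groups in its set, held 25.5 TPM. Because these values chose the groups, the mean levels of 27.5 ± 3.597 and 14.4 ± 5.54 TPM (SD, n = 8 each) are a description and were not tested. The left-out clones 21 and 24 held 9.56 and 4.15 TPM.

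**Figure D1:**
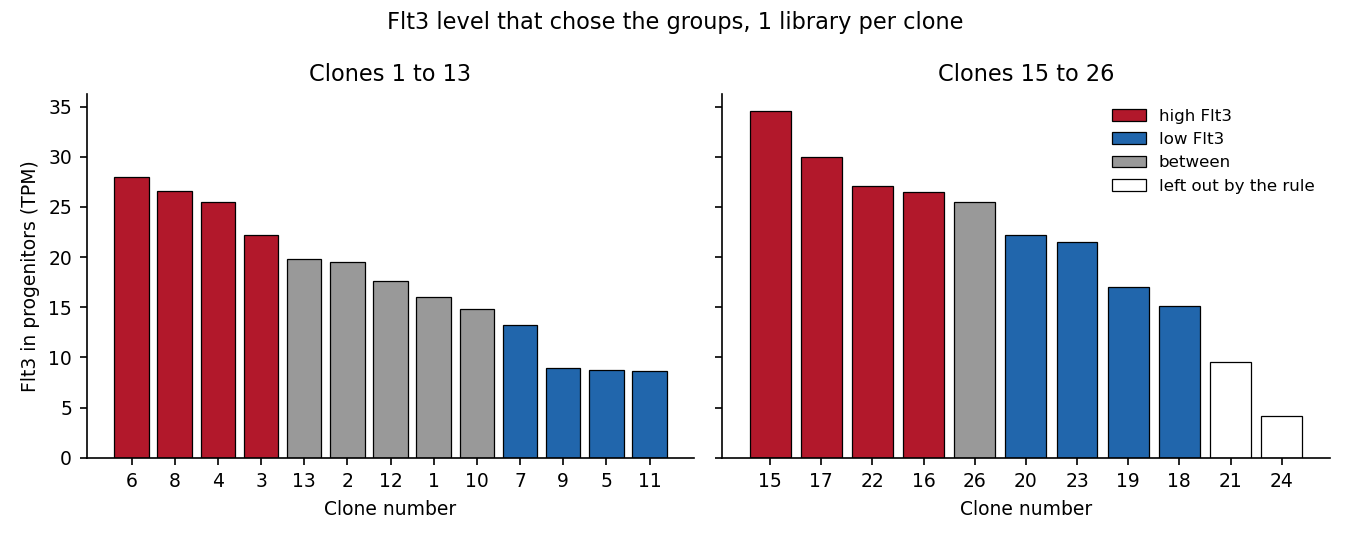
Flt3 level in TPM in each progenitor library, ranked within clones 1 to 13 and within clones 15 to 26. Colours mark the high, low and between clones and the 2 clones left out; the 4 low bars of clones 15 to 26 (15.1 to 22.2 TPM) stand higher than the 4 low bars of clones 1 to 13 (8.62 to 13.3 TPM).

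The labelled cell type was checked against its markers. Kit, the receptor for stem cell factor, lay between 26.03 and 125 TPM over the 16 libraries, and Mpo, myeloperoxidase of the primary granules, between 351 and 2670 TPM. Cd34 lay between 253 and 741 TPM. Elane, neutrophil elastase and a further marker of these progenitors, was uneven, from 1.34 to 183 TPM. The mature neutrophil gene S100a8 reached at most 375 TPM in 15 libraries and stood at 3502 TPM in the low-Flt3 clone 20, whose neutrophil granule genes summed to 12987 TPM against 511 to 1936 TPM in the other 15. Mean levels of Mpo were 1331 ± 582 and 1374 ± 821 TPM in high-Flt3 and low-Flt3 clones (SD, n = 8), and the groups overlapped. The summed levels of the neutrophil, monocyte, macrophage, mast cell, eosinophil, erythroid, lymphoid, T and NK cell, dendritic and stromal marker lists did not pass an exact permutation test within sets (adjusted p from 0.181 to 0.937 over 22 library measures). In bulk libraries, fewer cells of a type and less RNA per cell cannot be told apart.

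Across all genes the high-Flt3 progenitors differed widely from the low-Flt3 progenitors, almost always upward. Of 10796 genes with a mean of at least 1 TPM, limma with the set of clones as covariate called 3033 (28.1%) higher and 90 (0.834%) lower in high-Flt3 clones at an adjusted p under 0.05. The median log2 difference of all genes tested was 0.27, and 9102 genes lay above 0. The 8 compared clones of each set lay apart from those of the other set along the leading principal component, which carried 55.5% of variance. All but 10 of the higher calls had a positive difference in both sets (3023), and all 90 lower calls had a negative one. The calls came from 1 fit to both sets, so this agreement of sign was partly fixed by how they were made. It is not a test of each set. When each library was divided by the median ratio of its genes to their geometric means, a scaling chosen after the data were seen, the median difference was 0.00 and 337 genes (3.12%) were called higher and 547 (5.07%) lower. All 337 were among the 3033, and 85 genes were called lower both ways. The share of calls that were higher fell from 97.1% to 38.1% with this scaling. Both scales are therefore given for the genes that results below turn on. The scaling factors averaged 1.15 in high-Flt3 and 0.930 in low-Flt3 clones (exact permutation p = 0.0090, adjusted p = 0.049). Flt3 itself, ranked as deposited, differed by 0.96 as deposited and 0.63 scaled. With scaling the low-Flt3 clone 20 (22.2 TPM, factor 1.02) passed the high-Flt3 clones 16 (26.5 TPM, factor 1.23) and 22 (27.1 TPM, factor 1.40). Scaled differences thus compare groups that scaled Flt3 does not fully separate within the set of these clones.

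The size of the difference followed transcript length. A gene's length here is the median over its annotated protein-coding transcripts, not that of the transcript expressed. The median log2 difference as deposited was 0.04 for the 924 genes with transcripts up to 500 bases, the shortest of 7 classes, and 0.41 for the 602 genes of the longest class. Of the shortest class 7.79% were called higher, and of the longest 51.3%. Genes called higher had a median transcript length of 3013 bases, those called lower 559 bases, and all genes tested 2064 bases. With a smooth function of length removed from each library, also added after the data were seen, 58 of 10638 genes (0.545%) were called higher and 64 (0.602%) lower. A total of 52 genes were called higher and 15 lower as deposited, with median scaling, with length removed, and with mitochondrial, predicted (Gm) and pseudogene rows left out and the rest rescaled.

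**Figure D2:**
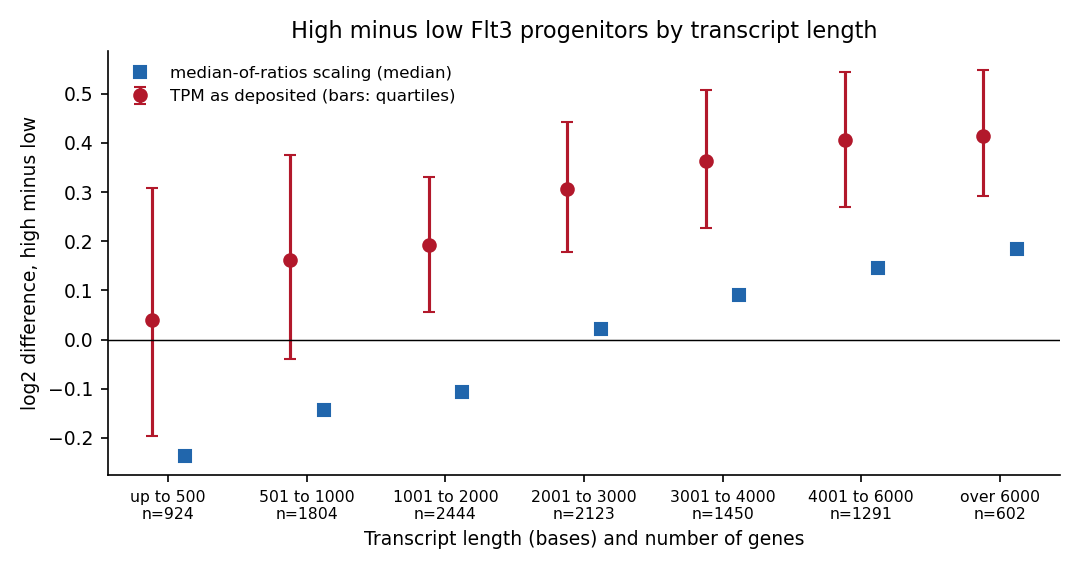
Log2 difference, high minus low Flt3 progenitors, for genes grouped by transcript length in bases (number of genes under each class). Circles are medians of the TPM as deposited with bars from the lower to the upper quartile, and squares are medians after median-of-ratios scaling; the medians climb from 0.04 to 0.41 as deposited and from -0.24 to 0.18 after scaling.

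Whole-library measures moved with the groups. Genes encoding ribosomal proteins took 12.3 to 17.8% of TPM in high-Flt3 clones and 12.8 to 22.8% in low-Flt3 clones (difference -2.20 points, exact permutation p = 0.0049, adjusted p = 0.049). The high-Flt3 clones had 10047 to 11016 genes at 1 TPM or more, the low-Flt3 clones 9162 to 11030 (exact permutation p = 0.0041, adjusted p = 0.049). The mitochondrial share was 3.44 to 12.2% and 4.63 to 13.3% (exact permutation p = 0.051, adjusted p = 0.181). With both sets pooled these ranges overlapped, and the lowest gene counts came from clones 7 and 9. Within clones 1 to 13 the ribosomal share did not overlap, at 15.2 to 17.8% in high-Flt3 and 19.3 to 22.8% in low-Flt3 clones. Neither did the gene counts there, at 10047 to 10374 and 9162 to 10004. Within clones 15 to 26 both measures overlapped, with high-Flt3 and low-Flt3 means of 13.2 and 13.8% and of 10955 and 10836 genes. The mitochondrial share overlapped in each set. With the number of genes at 1 TPM or more as a further covariate limma called 0 genes (584 at an unadjusted p under 0.05), and with the mitochondrial share as covariate 0 (2852 at an unadjusted p under 0.05). Without clones 7 and 9, limma called 0 genes, with 2844 at an unadjusted p under 0.05.

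The calls rested on clones 1 to 13 more than on clones 15 to 26. In clones 1 to 13 alone limma called 3759 genes higher and 161 lower, and in clones 15 to 26 alone 0, with 639 of 11084 at an unadjusted p under 0.05. The median difference over all genes was 0.40 in the former set and 0.13 in the latter. A test of the difference between the sets called 0 of 10796 genes (0.0%), with 1946 at an unadjusted p under 0.05; without clone 5 it called 512. Leaving out 1 clone moved the count of called genes from 3123 to 8 without clone 6, 8 without clone 8, 29 without clone 7 and 906 without clone 9. It came to 1997 without clone 4, 1818 without clone 11, 1627 without clone 19, 1905 without clone 20 and 1597 without clone 22. In each of the 16 omissions at least 4122 genes had an unadjusted p under 0.05, against 5127 with all 16 clones. The part of ribosomal transcripts, transcript length and numbers of genes in these counts was not tested beyond the fits given.

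Genes of stem and progenitor cells had the highest median difference of the 25 lists with at least 6 measured genes. Of 22 measured members, limma called 13 higher and 0 lower as deposited (median log2 0.57, against 0.27 over all genes), and 4 higher with median scaling (Adgrg1, Adgrl4, Erg and Sox4; median 0.26, against 0.00). Over all genes, 28.1% were called higher as deposited and 3.12% with scaling. With length removed 1 of the 22 was called higher, Erg (list median 0.28, against -0.01), beside 0.545% of all genes. The other 10 members of the list had a mean under 1 TPM, among them Hoxa9. This list had been part of earlier work on these libraries and was not chosen independently of them.

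Cd34, the sialomucin used to sort progenitors (chr1:194938819-194961279, plus strand), ranged from 387 to 741 TPM with a median of 521 in high-Flt3 clones and from 253 to 485 TPM with a median of 355 in low-Flt3 clones. In TPM as deposited, all 4 high-Flt3 clones lay above all 4 low-Flt3 clones within clones 1 to 13, and again within clones 15 to 26. With median scaling the groups overlapped in clones 1 to 13. There the low-Flt3 clone 9 (350 TPM, scaling factor 0.546) passed the high-Flt3 clone 3 (521 TPM, scaling factor 0.882). How many of all genes separate in this way was not counted. The log2 difference was 0.60 ± 0.11 (SE, adjusted p = 0.023, limma) as deposited. With median scaling it was 0.25 ± 0.09 (adjusted p = 0.086).

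Adgrg1, an adhesion G protein-coupled receptor of hematopoietic stem cells (chr8:94974751-95014217, plus strand), ranged from 373 to 854 TPM with a median of 597 in high-Flt3 clones and from 157 to 723 TPM with a median of 225 in low-Flt3 clones. The low-Flt3 clone 23 held the 723 TPM; the groups did not overlap in clones 1 to 13 and overlapped in clones 15 to 26. The log2 difference was 1.21 ± 0.27 as deposited (adjusted p = 0.023) and 0.86 ± 0.22 with median scaling (adjusted p = 0.041). With length removed it was 1.06 and did not pass (adjusted p = 0.055). Adgrl4, an adhesion receptor of the same family known from endothelium (chr3:151437887-151545086, plus strand), had means of 103 ± 41.6 and 48.9 ± 19.6 TPM (SD, n = 8) and a log2 difference of 1.06 as deposited and 0.72 scaled (adjusted p = 0.0445).

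Erg, an ETS factor needed by hematopoietic stem cells (chr16:95359169-95586593, minus strand), ranged from 12.4 to 22.2 TPM in high-Flt3 clones and from 4.24 to 15.5 TPM in low-Flt3 clones. The means were 18.1 ± 2.82 and 10.3 ± 4.13 TPM (SD, n = 8), with no overlap as deposited within either set of clones. Its difference was 0.83 ± 0.16 as deposited, 0.52 ± 0.12 with median scaling (adjusted p = 0.0405) and 0.56 with length removed (adjusted p = 0.049). Sox4, an HMG-box factor of early lymphoid and myeloid progenitors (chr13:28948919-28953713, minus strand), had medians of 18.5 and 10.2 TPM and differences of 0.69 ± 0.12 as deposited and 0.38 ± 0.07 scaled (adjusted p = 0.032). Hlf, a PAR bZIP factor of stem cells, was at 208 and 113 TPM on average, called as deposited (0.96, adjusted p = 0.025) and not with median scaling (0.62, adjusted p = 0.059). Myb, the factor that drives progenitor division, was at 387 ± 152 and 291 ± 171 TPM (0.52, adjusted p = 0.035), and its scaled difference of 0.17 did not pass (adjusted p = 0.292). Meis1, a homeodomain partner of Hox proteins in stem cells, differed by 0.45 as deposited (adjusted p = 0.0721) and by 0.17 scaled (adjusted p = 0.5775), and passed on neither scale.

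The promoters of Flt3 and of 3 of these genes are shown, since Cd34, Sox4 and Adgrl4 differed between the groups chosen on Flt3. Each window holds 250 bases before and 50 after the RefSeq start (GRCm38.p6, the assembly also called mm10), in the direction of transcription: chr5:147400440-147400739 minus strand for Flt3, chr1:194938571-194938870 plus strand for Cd34, chr13:28953650-28953949 minus strand for Sox4 and chr3:151437632-151437931 plus strand for Adgrl4. Capitals mark matches, on either strand, to the letters TGTGGT (Runx), TGATNNAT (Hox with Pbx), TGACAG (Meis) or GAGGAA (PU.1), which do not overlap one another in these windows.
Flt3: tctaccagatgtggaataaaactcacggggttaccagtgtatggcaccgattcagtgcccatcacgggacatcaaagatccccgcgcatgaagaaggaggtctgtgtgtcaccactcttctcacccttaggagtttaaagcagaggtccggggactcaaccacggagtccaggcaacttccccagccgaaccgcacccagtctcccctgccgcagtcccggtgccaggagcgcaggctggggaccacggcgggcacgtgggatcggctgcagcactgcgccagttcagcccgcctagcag
Cd34: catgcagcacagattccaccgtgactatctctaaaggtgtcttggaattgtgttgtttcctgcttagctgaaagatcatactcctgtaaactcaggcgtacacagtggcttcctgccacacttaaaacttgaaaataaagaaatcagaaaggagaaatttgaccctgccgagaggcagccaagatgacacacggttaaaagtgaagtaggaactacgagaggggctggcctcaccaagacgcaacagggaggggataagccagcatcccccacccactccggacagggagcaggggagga
Sox4: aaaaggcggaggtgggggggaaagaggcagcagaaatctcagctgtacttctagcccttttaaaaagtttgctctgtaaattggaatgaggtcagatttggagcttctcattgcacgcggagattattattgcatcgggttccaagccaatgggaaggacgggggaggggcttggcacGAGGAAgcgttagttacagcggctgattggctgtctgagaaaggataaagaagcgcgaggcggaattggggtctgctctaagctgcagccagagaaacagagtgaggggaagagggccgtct
Adgrl4: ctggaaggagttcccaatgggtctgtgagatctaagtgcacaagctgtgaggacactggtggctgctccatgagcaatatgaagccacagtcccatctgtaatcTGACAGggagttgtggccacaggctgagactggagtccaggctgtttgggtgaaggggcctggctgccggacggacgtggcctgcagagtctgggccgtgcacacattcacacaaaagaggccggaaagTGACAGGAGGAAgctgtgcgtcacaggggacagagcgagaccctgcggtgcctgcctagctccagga
The Flt3 and Cd34 windows held none of these letters, Sox4 held 1 PU.1 match, and Adgrl4 held 2 Meis matches and 1 PU.1 match. Over the windows of 27025 genes, 16.9% held the Runx letters, 9.04% the Hox-Pbx letters, 19.3% the Meis letters and 28.3% the PU.1 letters. Over the 7754 of these genes that were tested here, the shares were 12.5%, 3.51%, 16.6% and 26.6%, and over the 2399 called higher as deposited 10.96%, 2.96%, 15.3% and 27.1%. A match is a run of letters and not a measured binding site.

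Of 28 measured members of a list of the ligand, adaptors, kinases, Stat factors and inhibitors, 16 were called higher and 0 lower as deposited, where 28.1% of all genes were called higher. With median scaling 0 were called, where 3.12% of all genes were called higher. The median log2 difference of the 28 was 0.49 as deposited, against 0.27 over all genes, and 0.22 scaled, against 0.00. With scaling 25 of the 28 lay above 0, against 5333 of all 10796 genes. The ligand gene Flt3l was at 12.7 ± 13.2 TPM in high-Flt3 clones and 10.0 ± 8.33 TPM in low-Flt3 clones, a difference of 0.23 ± 0.40 that did not pass (adjusted p = 0.659).

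Among adaptors, Cbl, the ubiquitin ligase that turns over active receptor kinases, ranged from 20.4 to 92.8 TPM with a median of 43.9 in high-Flt3 clones and from 5.59 to 81.2 TPM with a median of 22.4 in low-Flt3 clones. Its groups overlapped and its difference was 0.89 ± 0.30 as deposited (adjusted p = 0.040) and 0.57 scaled (adjusted p = 0.127). Gab2, a docking protein for the PI3K branch, differed by 0.55 (adjusted p = 0.035) and by 0.31 scaled (adjusted p = 0.0904). Pik3cd, the leukocyte catalytic subunit of PI3K, differed by 0.69 (adjusted p = 0.026) and by 0.40 scaled (adjusted p = 0.102). Of the Stat factors, Stat3 differed by 0.82 (26.4 against 15.7 TPM on average, adjusted p = 0.025; scaled 0.50, adjusted p = 0.050 and just over the threshold). Stat5a differed by 0.52 (13.6 ± 3.47 and 9.90 ± 5.27 TPM, adjusted p = 0.041) and Stat5b by 0.51 (adjusted p = 0.030), with scaled differences of 0.21 each. Dusp6, a phosphatase induced by the MAPK branch that shuts off Erk, differed by 0.63 (54.7 against 36.2 TPM, adjusted p = 0.024) and by 0.29 scaled (adjusted p = 0.166).

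Plcg2, named for its likeness to Flt3 across libraries, and Inpp5d, picked after its values were seen, lie outside that list. Plcg2, a phospholipase C of immune receptor signalling, had medians of 33.0 and 14.6 TPM and differed by 0.92 ± 0.20 as deposited and 0.59 ± 0.16 scaled (adjusted p = 0.044). Inpp5d, the SHIP1 phosphatase that opposes PI3K, had means of 69.2 ± 20.2 and 41.5 ± 22.9 TPM and was called on each of the 4 scales (0.87 as deposited, 0.54 scaled, adjusted p = 0.034).

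Among the 16 measured cytokine receptors of progenitors, 4 were called higher and 0 lower as deposited, and 0 with median scaling (medians 0.31 and 0.01, against 0.27 and 0.00 over all genes). The share called higher as deposited was below the 28.1% of all genes. Kit ranged from 44.5 to 125 TPM in high-Flt3 clones and from 26.03 to 118 TPM in low-Flt3 clones, and the groups overlapped in both sets. It differed by 0.50 ± 0.16 as deposited (adjusted p = 0.038) and by 0.16 ± 0.11 scaled (adjusted p = 0.347). Its difference was 0.84 in clones 1 to 13 and 0.15 in clones 15 to 26. The other 3 were Il17ra, Ifnar1 and Tgfbr2; Il17ra, the interleukin 17 receptor, was at 18.04 ± 3.604 and 11.5 ± 3.99 TPM (0.65, adjusted p = 0.0256; scaled 0.33, adjusted p = 0.107). Csf1r, the receptor for macrophage colony-stimulating factor, averaged 1.23 ± 1.54 and 2.80 ± 3.38 TPM (adjusted p = 0.291), and Csf3r, the granulocyte colony-stimulating factor receptor, 13.9 ± 5.71 and 12.7 ± 9.47 TPM (adjusted p = 0.333). Il7r, the interleukin 7 receptor, had a mean under 1 TPM and was not tested.

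Of 15 measured lymphoid priming and B lineage genes 5 were called higher and 0 lower as deposited (Ebf1, Rag2, Ikzf1, Satb1 and Tcf3; median 0.52), and 1, Ebf1, with median scaling (median 0.20). Over all genes 28.1% were called higher as deposited, a share near that of the list, and 3.12% with scaling. On each scale 12 of the 15 members had a positive difference. Of all 10796 genes, 9102 were positive as deposited and 5333 with scaling. Ebf1, the factor that commits cells to the B lineage (chr11:44617317-45008091, plus strand), was at 1.93 to 19.96 TPM with a median of 6.74 in high-Flt3 clones and at 0.682 to 5.81 TPM with a median of 1.48 in low-Flt3 clones. The 19.96 TPM belonged to clone 15, the clone with the highest Flt3. The difference of Ebf1 was 1.37 ± 0.33 as deposited (adjusted p = 0.023) and 1.13 ± 0.32 scaled (adjusted p = 0.045).

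Rag2, a subunit of the recombinase of antigen receptor genes, ranged from 7.13 to 17.2 TPM in high-Flt3 clones and from 3.54 to 8.50 TPM in low-Flt3 clones, and differed by 0.87 ± 0.17 (adjusted p = 0.023; scaled 0.56, adjusted p = 0.067). Ikzf1, the Ikaros zinc finger factor of lymphoid progenitors, averaged 36.2 ± 12.4 and 20.4 ± 8.31 TPM (0.82, adjusted p = 0.028; scaled 0.49, adjusted p = 0.0695). Dntt, the terminal transferase, ranged from 0.501 to 25.5 TPM and from 0.129 to 18.97 TPM; its difference of 1.04 ± 0.45 did not pass (adjusted p = 0.084). Thy1, a surface glycoprotein of T cells and some progenitors, had medians of 9.29 and 3.64 TPM and differed by 1.28 ± 0.37 as deposited (adjusted p = 0.028), with a scaled difference of 0.99 (adjusted p = 0.107). The summed T and NK cell markers, of which 3 were measured, were at 7.35 to 53.5 TPM and 3.30 to 23.2 TPM (adjusted p = 0.181).

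Of 8 measured dendritic cell genes, the same 3 were called higher as deposited (28.1% of all genes) and with median scaling (3.12% of all genes): Runx2, Cbfa2t3 and Tcf4. The list's median was 0.03 as deposited and -0.29 scaled. As deposited 4 of the 8 members had a positive difference, against 9102 of all 10796 genes. Tcf4, the E protein of plasmacytoid dendritic cells, had medians of 9.54 and 4.32 TPM and differed by 0.80 ± 0.17 as deposited, 0.51 ± 0.11 scaled (adjusted p = 0.034) and 0.56 with length removed (adjusted p = 0.047). Runx2, a Runt factor also found in these cells, had means of 12.8 ± 4.46 and 7.40 ± 5.28 TPM and differed by 0.89 as deposited and 0.60 scaled (adjusted p = 0.044). With length removed Runx2 differed by 0.65 (adjusted p = 0.061), and Tcf4 was the 1 call of the list. Cbfa2t3, a corepressor of progenitors, differed by 0.87 and by 0.62 scaled (adjusted p = 0.045). Irf8, the factor of monocyte and dendritic cell fate, averaged 4.28 ± 1.55 and 4.85 ± 2.95 TPM, a difference of -0.04 (adjusted p = 0.911). Of 6 measured genes of MHC class II, 0 were called on either scale (median 0.24 as deposited).

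Mature myeloid lists had medians below that of all genes. Their calls stand beside 28.1% of all genes called higher and 0.834% lower as deposited, and 3.12% and 5.07% with scaling. The 10 primary granule genes held 0 calls on either scale and a median of -0.15 as deposited and -0.49 scaled. The 15 neutrophil granule genes held 0 calls as deposited and 1 lower with scaling, Anxa1 (annexin A1, 606 and 811 TPM, scaled -0.74, adjusted p = 0.040). The 11 macrophage genes held 0 calls as deposited and 1 lower with scaling, the tetraspanin Cd63 (703 and 810 TPM, scaled -0.54, adjusted p = 0.044). The 15 monocyte genes held 1 higher call as deposited, the matrix gene Fn1 at 1.99 ± 0.986 and 1.34 ± 1.31 TPM (scaled difference 0.30, adjusted p = 0.235). Without clone 20, whose neutrophil granule sum stood apart, the comparison called 1905 genes in all.

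Mast cell and basophil genes had the lowest median of the 25 lists with at least 6 measured genes, -0.49 as deposited and -0.65 scaled over 13 measured members, with 0 calls on either scale. For this and the next lists, 28.1% of all genes were called higher as deposited and 3.12% with scaling. Mcpt8, a basophil protease, averaged 133 and 270 TPM (difference -0.71, adjusted p = 0.234), and Cpa3, the mast cell carboxypeptidase, 1519 ± 485 and 1339 ± 592 TPM (0.32, adjusted p = 0.437). The list's summed TPM was 1495 to 4496 and 770 to 4534 (adjusted p = 0.937), so its median and its sum differed in sign. Of 11 erythroid and megakaryocyte genes, 2 were called higher as deposited and 0 scaled; Car2, carbonic anhydrase, had medians of 97.5 and 52.6 TPM and differed by 1.05 ± 0.24 (adjusted p = 0.023; scaled 0.71, adjusted p = 0.079). The 1 measured eosinophil gene was not called, and neither were the 2 measured stromal and endothelial genes.

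Myeloid fate factors held 0 calls among 18 measured on either scale. Of all genes, 28.1% were called higher as deposited and 3.12% with scaling. Cebpa, the factor that opens the granulocyte-monocyte path, averaged 70.6 ± 21.1 and 56.7 ± 28.5 TPM (0.41, adjusted p = 0.070; scaled 0.07, adjusted p = 0.685), and Spi1, encoding PU.1, 67.0 ± 8.64 and 60.8 ± 23.8 TPM (0.21, adjusted p = 0.349; scaled -0.13, adjusted p = 0.604). Gfi1, a repressor needed on the granulocyte path, differed by 0.31 (adjusted p = 0.0775) and by -0.02 scaled (adjusted p = 0.918). Hoxb8, whose reads can come from the endogenous gene and from the ER-Hoxb8 transgene, ranged from 47.9 to 572 TPM and from 33.7 to 387 TPM and did not pass (0.43 ± 0.27, adjusted p = 0.214). Its level was between 33.7 and 101 TPM in the 8 compared clones of clones 1 to 13 and between 155 and 572 TPM in those of clones 15 to 26. Pbx2, a homeodomain partner of Hox proteins, was the 1 call as deposited among the 4 measured genes of the list of Hox genes and partners that also holds Hoxb8 (17.6 ± 2.72 and 12.4 ± 3.96 TPM, 0.52, adjusted p = 0.023; scaled 0.20, adjusted p = 0.106).

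**Figure D3:**
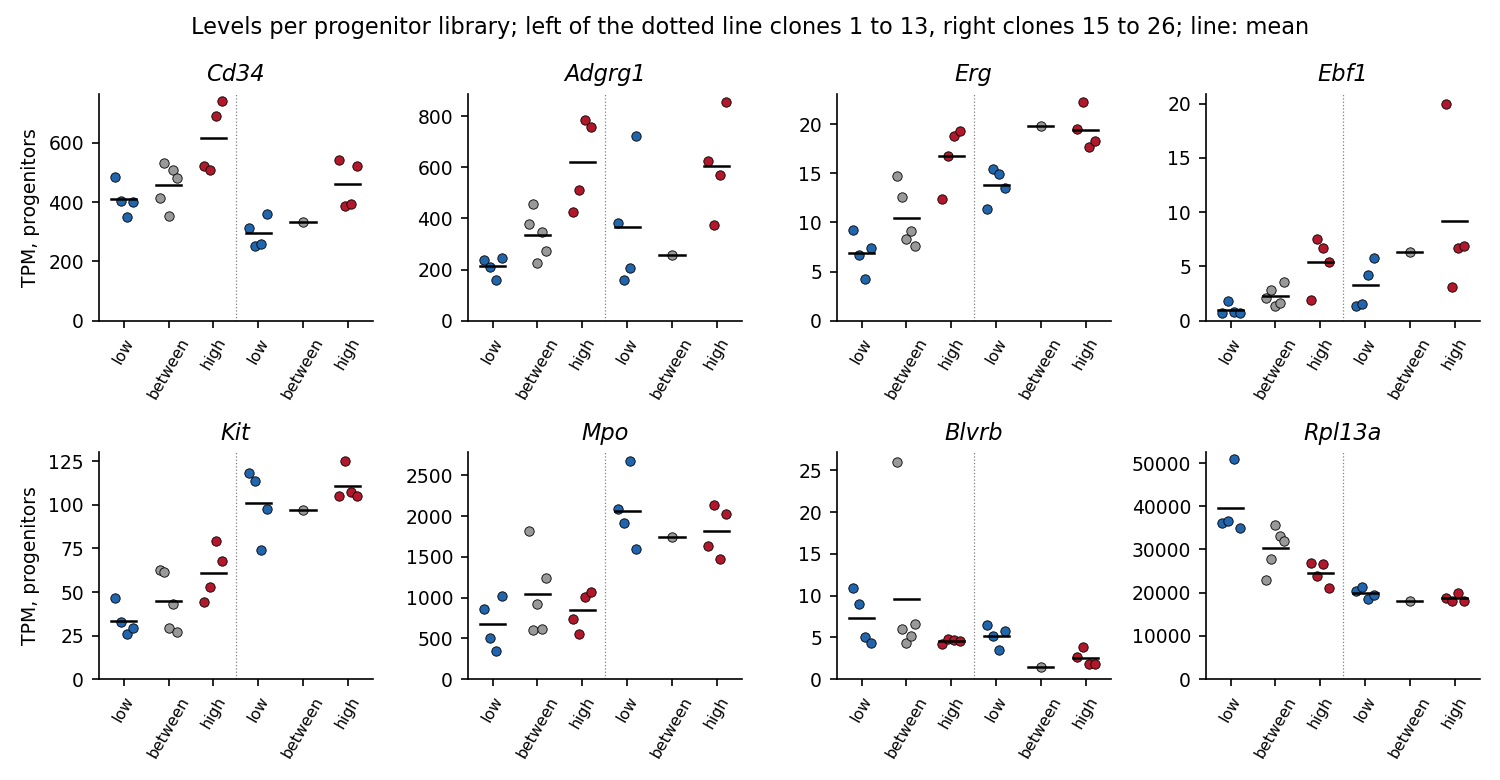
TPM of 8 genes in each progenitor library, low, between and high Flt3, with clones 1 to 13 left and clones 15 to 26 right of the dotted line; each point is 1 clone and the line is the group mean. Cd34 and Erg do not overlap between low and high within either set, Kit and Mpo overlap in both sets, and Rpl13a overlaps in clones 15 to 26 but not in clones 1 to 13, where the low group is higher.

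Lists of division and biosynthesis genes are read against the 28.1% of all genes called higher as deposited and the 3.12% with scaling. All 22 measured DNA replication genes had a positive difference as deposited, as did 9102 of all 10796 genes. Of the 22, 11 were called higher as deposited and 3 with scaling (Mcm4, Mcm7 and Pola1). Their medians were 0.36 as deposited and 0.05 scaled. Mcm7, a subunit of the replicative helicase, had medians of 145 and 92.2 TPM and differed by 0.58 ± 0.13 as deposited, 0.24 ± 0.07 scaled (adjusted p = 0.049) and 0.43 with length removed (adjusted p = 0.049). Mcm2, of the same helicase, averaged 204 ± 44.6 and 125 ± 40.9 TPM (scaled 0.39, adjusted p = 0.063). Of 22 mitosis genes 9 were called higher and 0 scaled (medians 0.42 and 0.10), and of 12 G1 cyclins and inhibitors 4 and 1. Cdk6, the kinase of early progenitor division, differed by 0.65 and 0.33 scaled (adjusted p = 0.042). With length removed Cdk6 differed by 0.51 and did not pass (adjusted p = 0.055). Bub1b, of the spindle checkpoint, differed most among mitosis genes (0.68, adjusted p = 0.0244; scaled 0.36, adjusted p = 0.05355).

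Of 22 cholesterol synthesis genes 10 were called higher as deposited, of 20 glycolysis genes 8 and of 19 ribosome biogenesis genes 8, beside 28.1% of all genes, and 0 of these lists' members were called higher with scaling, beside 3.12%. Dhcr7, the last step of cholesterol synthesis, averaged 136 ± 61.1 and 78.0 ± 27.2 TPM (0.75, adjusted p = 0.024; scaled 0.41, adjusted p = 0.0809), Hk1, hexokinase, 47.5 ± 8.60 and 31.2 ± 13.2 TPM (0.69, adjusted p = 0.029; scaled 0.36, adjusted p = 0.0812), and Polr1a, of RNA polymerase I, 18.6 ± 10.1 and 12.9 ± 11.05 TPM (0.76, adjusted p = 0.037; scaled 0.47, adjusted p = 0.107). The remaining lists gave 4 of 10 survival genes, 6 of 15 adhesion genes, 2 of 14 interferon genes and 1 of 16 stress genes called higher as deposited, and 0 lower. The interferon and stress shares lie below the 28.1% of all genes. With scaling, 1 survival gene was called higher (Bak1) and 1 lower (Bax), and 1 adhesion gene (Cd47) and 1 stress gene (Gadd45a) were lower. The largest called difference of each of these lists was that of Bak1, a pore-forming death protein (0.68), Cd44, the hyaluronan receptor (0.74), Rtp4, an interferon-induced gene (0.67), and Hsp90b1, a chaperone of the endoplasmic reticulum (0.70). With scaling Bak1 passed (0.34, adjusted p = 0.0441), and Cd44 (0.41, adjusted p = 0.0959), Rtp4 (0.37, adjusted p = 0.275) and Hsp90b1 (0.35, adjusted p = 0.214) did not. With length removed Bak1 did not pass (0.39, adjusted p = 0.056). No member of the sex-linked list reached the filter.

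**Figure D4:**
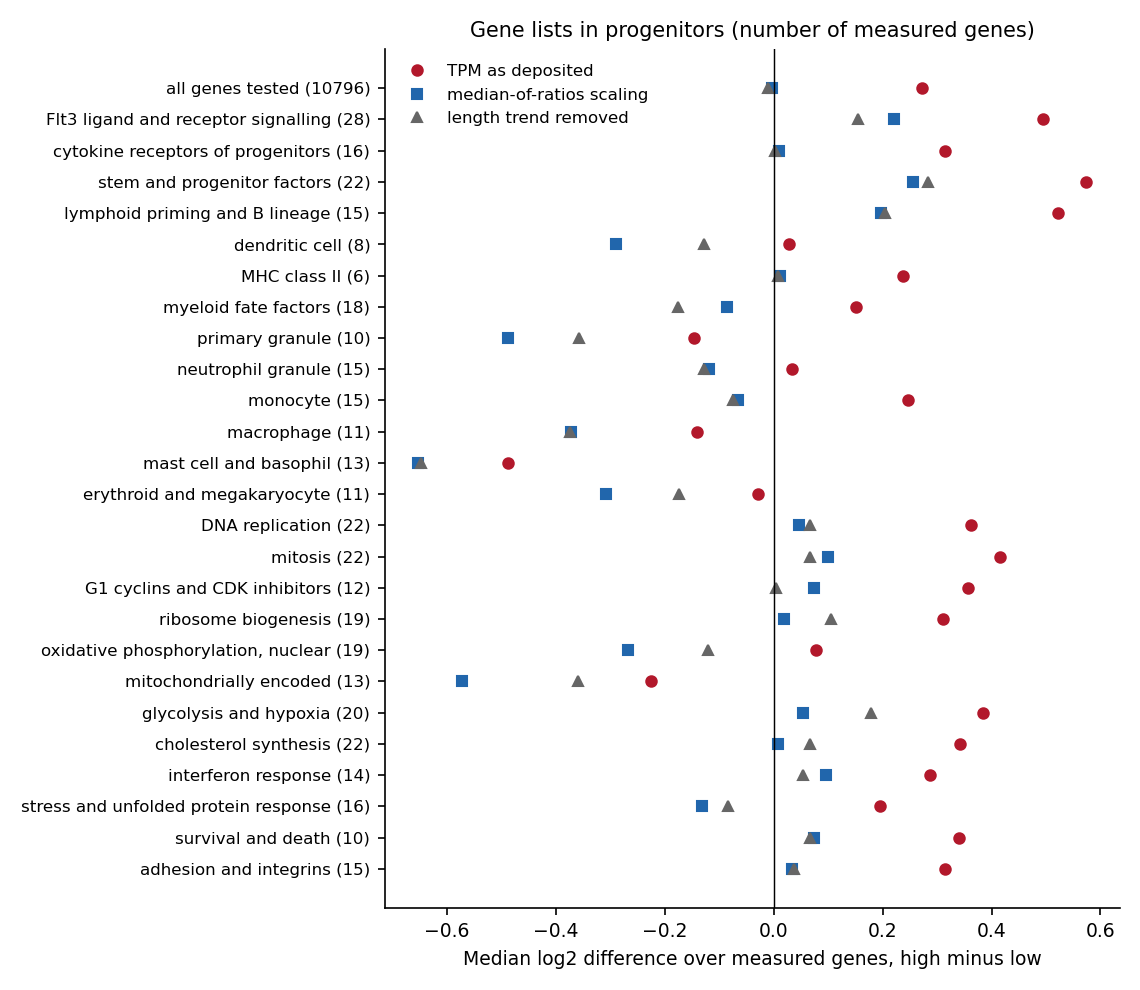
Median log2 difference, high minus low Flt3 progenitors, of 25 gene lists with at least 6 measured genes and of all genes tested, on 3 scales (circle: TPM as deposited; square: median-of-ratios scaling; triangle: length trend removed). Of the 25 medians, 20 lie above 0 as deposited and 14 after scaling; stem and progenitor factors lie highest as deposited (0.57) and mast cell and basophil genes lowest (-0.49).

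Genes lower in high-Flt3 clones were mostly short. Of the 90 lower calls as deposited, 30 were ribosomal protein genes or their pseudogenes and 25 were predicted Gm models, and reads of such near-identical copies can be split in counting. Lower calls made up 0.834% of all genes as deposited and 5.07% with scaling. Of 87 ribosomal protein genes, a list added after the data were seen, 1 was called higher and 21 lower as deposited, and 0 and 31 with scaling. With length removed 0 were called higher and 2 lower, where 0.602% of all genes were called lower. Rpl13a ranged from 17990 to 26987 TPM, with a mean of 21691 ± 3700 TPM, in high-Flt3 clones and from 18611 to 50899 TPM, with a mean of 29775 TPM, in low-Flt3 clones. It differed by -0.38 ± 0.10 (adjusted p = 0.026), with no overlap and -0.67 in clones 1 to 13, and overlap and -0.09 in clones 15 to 26. Rps23, of the small subunit, was 1 of the 2 called lower with length removed. It had medians of 343 and 394 TPM and was called lower on each of the 4 scales (-0.29 as deposited, -0.64 scaled).

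Of 13 genes encoded in mitochondrial DNA 1 was called lower as deposited, mt-Co3, a cytochrome oxidase subunit, at 2756 to 5012 TPM in high-Flt3 and 3719 to 6027 TPM in low-Flt3 clones (-0.29 ± 0.09, adjusted p = 0.031; scaled -0.64, adjusted p = 0.0412), and 3 were called lower with scaling. Of 19 nuclear respiratory chain genes, 2 were higher and 1 lower as deposited, and 0 and 4 with scaling. Atp5a1, an ATP synthase subunit, was called higher as deposited (0.31, adjusted p = 0.027) and lay at -0.04 with scaling (adjusted p = 0.703). Of 75 mitochondrial ribosome genes, also added after the data were seen, 1 was higher and 3 lower as deposited, and 0 and 35 with scaling. With length removed 0 were higher and 4 lower. Of all genes, 0.834% were called lower as deposited, 5.07% with scaling and 0.602% with length removed. Mrpl33 averaged 133 ± 12.4 and 169 ± 35.1 TPM and was lower on each scale.

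Among lower calls with at least 5 TPM in the low group, leaving out predicted models and pseudogenes, the largest difference of a gene with a known product was that of Blvrb, biliverdin reductase B, at 1.78 to 4.85 TPM with a median of 4.03 in high-Flt3 clones and 3.46 to 10.9 TPM with a median of 5.47 in low-Flt3 clones. It was called on each scale (-0.67 ± 0.18 as deposited, -0.94 ± 0.15 scaled, adjusted p = 0.023). Sat1, the polyamine acetyltransferase, averaged 40.5 ± 17.5 and 59.4 ± 33.6 TPM (-0.49, scaled -0.83). Atp5e, Hint3, Rpl22l1, AI413582 and the model AC150560.2 complete the 7 largest lower calls of this kind, from -0.83 to -0.44, and all 7 were also called lower with scaling.

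The largest higher differences, by the same rule, began with Wdr60. The gene, a dynein component of cilia, ranged from 4.08 to 17.4 TPM with a median of 11.6 in high-Flt3 clones and from 0.457 to 5.31 TPM with a median of 2.21 in low-Flt3 clones (1.85 ± 0.35, adjusted p = 0.023; scaled 1.60, adjusted p = 0.040). With length removed Wdr60 differed by 1.47 and did not pass (adjusted p = 0.055). Itsn1, an endocytic scaffold protein, had medians of 13.8 and 6.49 TPM and a difference of 1.49 ± 0.25, and was called on each of the 4 scales (scaled 1.25, adjusted p = 0.036). Gpr12, an orphan receptor, Abcb1a, a drug efflux pump, Bdh1, an enzyme of ketone bodies, and the model AC124709.3 differed by 1.71, 1.47, 1.44 and 1.71 as deposited and were not called with scaling. With Ebf1 these are the 7 largest higher calls of this kind.

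Separation of all 8 high-Flt3 libraries from all 8 low-Flt3 libraries was rare. Of the 10796 genes tested, it held for 10 higher in the high group and 0 lower. The 2 described here, Impdh1 and Trp53i11, were named after their values were seen. Impdh1, the enzyme that commits purines to guanine nucleotides, was at 120 to 170.5 TPM with a median of 148 in high-Flt3 clones and at 51.2 to 113 TPM with a median of 82.8 in low-Flt3 clones (0.81 ± 0.15, scaled 0.46 ± 0.09, adjusted p = 0.034). Trp53i11, a p53-induced gene, was at 7.26 to 12.3 TPM and 2.58 to 6.96 TPM (0.91 ± 0.13, adjusted p = 0.013), and remained called in each of the 16 omissions of 1 clone. The other 8 were 1700113H08Rik, Cercam, Csnk1g2, Dpp3, Egln1, Gm28053, Rundc3b and Stim1.

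The genes whose level followed Flt3 most closely over the 22 ranked libraries, after centring each set, were Plcg2 (Pearson's r = 0.908), Ablim1 (0.876), Myo7a (0.863), Tap1 (0.863) and B2m (0.857). These values describe libraries that share a composition: the median r over 6547 genes was 0.445, and 88.4% of genes had a positive r. With median scaling the r of the same 5 genes lay between 0.735 and 0.837 and the median over all genes was near 0. The most negative were Rpl13a (-0.741), Rps23 (-0.722), Rpl35a (-0.721), Rps12l1 (-0.718) and Smim26 (-0.683), which with scaling lay between -0.344 and -0.296.

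B2m, the light chain of MHC class I molecules, was at 1027 to 1324 TPM in the high-Flt3 and 568 to 719 TPM in the low-Flt3 clones of clones 1 to 13, but at 846 to 1097 and 657 to 976 TPM in clones 15 to 26, where the groups overlapped. Its difference was 0.55 ± 0.14 as deposited (adjusted p = 0.024) and 0.21 scaled (adjusted p = 0.289). Tap1, a peptide transporter subunit, had medians of 52.7 and 39.9 TPM (0.63, adjusted p = 0.023; scaled 0.29, adjusted p = 0.133).

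Flt3 itself was near 0 in the monocyte libraries of the same clones. It ranged from 0.0224 to 0.156 TPM in the high-Flt3 clones and from 0 to 0.165 TPM in the low-Flt3 clones, with means of 0.0687 ± 0.05001 and 0.0622 ± 0.0520 TPM (SD, n = 8), and the difference did not pass (exact permutation within sets, 4900 assignments, p = 0.805).

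Between the monocyte libraries of high-Flt3 and low-Flt3 clones, limma called 0 of 10793 genes (0.0%), with 157 at an unadjusted p under 0.05. Of 2978 genes called in progenitors and measured in monocytes, 2388 had the same sign, against 7035 of 9989 genes of any kind, and 33 had an unadjusted p under 0.05. With median scaling the counts were 461 of 845 and 5201 of 9989. Cd34 was at 6.04 ± 4.41 and 6.96 ± 5.58 TPM (SD, n = 8) in the monocytes of the high-Flt3 and low-Flt3 clones. Ebf1 averaged 0.191 and 0.237 TPM there. Adgrg1 was at 20.2 ± 20.04 and 10.3 ± 6.86 TPM. It ranged from 1.21 to 64.1 TPM in high-Flt3 clones, highest in clone 22, and from 2.70 to 18.1 TPM in low-Flt3 clones. Adgrg1 differed by 0.58 ± 0.59 there and Cd34 by -0.15 ± 0.44. Myb averaged 97.2 and 19.4 TPM in monocytes, a difference of 1.78 ± 0.87 (unadjusted p = 0.059).

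The change from progenitor to monocyte, taken within each clone, passed the test of a difference between the groups for 0 of 11103 genes (0.0%) by limma, with 461 at an unadjusted p under 0.05. The groups' differences in progenitors and in monocytes are given side by side for the named genes. For Erg they were 0.83 ± 0.16 and 0.05 ± 0.49, for Mcm7 0.58 ± 0.13 and 0.43 ± 0.45, for Plcg2 0.92 ± 0.20 and -0.10 ± 0.34, and for Kit 0.50 ± 0.16 and 0.72 ± 0.49. The standard errors in monocytes were larger for each of these 4 genes.

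**Figure D5:**
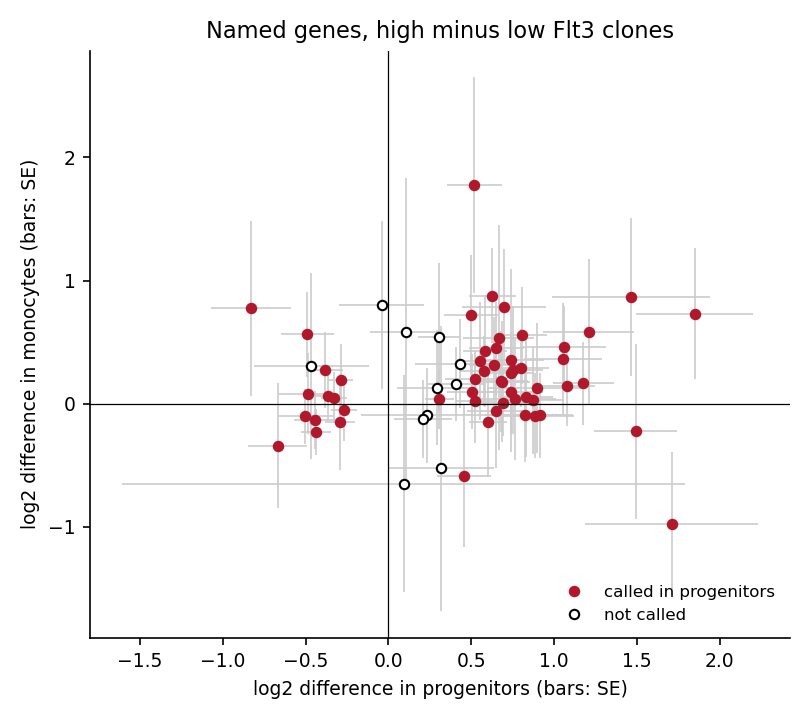
Log2 difference, high minus low Flt3 clones, in progenitors (horizontal axis) and in monocytes of the same clones (vertical axis) for 66 named genes measured in both states; bars are standard errors and filled points the 55 genes called in progenitors. Of the 55 filled points, most lie right of 0 on the horizontal axis, and on the vertical axis the points spread to both sides of 0.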

How the data were processed

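RNA was sequenced from 48 libraries, and the 32 libraries of 16 clones were compared. The authors deposited 1 table of TPM per gene symbol; Salmon and mm10 are named per the submitters' processing notes, and no release of the annotation is named there. The deposited columns summed to 982723 to 999054 after 26 rows named by calendar dates were left out of 34643, and since TPM keeps no read depth, counting error is unknown. Groups came from the labels, and high and low from Flt3 TPM by rank; the members and the gene lists were chosen with earlier results of these data known. Genes with a mean of at least 1 TPM in the libraries compared entered limma 3.58.1 (R 4.3.3) on log2(TPM + 1) with set of clones as covariate, mean-variance trend, two-sided, Benjamini-Hochberg over all genes but Flt3, threshold 0.05; p-values are adjusted this way unless called unadjusted. The log2 scale with pseudocount 1 understates changes of low genes, and a difference is high minus low. Monocytes were tested likewise, and changes as monocyte minus progenitor of the same clone. Library measures and Flt3 in monocytes were tested by exact permutation within sets. Named genes were the 7 largest calls each way with at least 5 TPM in the higher group and 1 sign in both sets (predicted Gm, mitochondrial, Rik and pseudogene names left out), the largest call of each of 30 lists, and a fixed set always given; others were named after their values were seen. Coordinates and transcript lengths are from GENCODE M21 (mm10). Length is the median summed exon length of a gene's protein-coding transcripts, or of all its transcripts where none is coding. It can lie far below that of the transcript expressed, and came to 705 bases for Adgrg1, 697 for Cdk6 and 795 for Mcm7. The length classes and the fits with length removed carry this limit. The limma fit was tested on simulated data with noise drawn independently for each gene. That test does not cover shifts shared by many genes, as in these libraries. Alternatives were other pseudocounts, filters, scalings, covariates, rankings, tests and the omission of clones.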

Additional observations from a re-analysis of the deposited data

Results flagged for a closer look

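Among 152 groups of 8 progenitor libraries examined for the named genes, 4 held a library far from the others by Dixon's criterion, which flags about 1 group in 20 by chance. Clone 16 was the lowest of the 8 high-Flt3 libraries for Gpr12, at 1.18 TPM with the next at 16.9 TPM, and for Bdh1, at 1.52 TPM with the next at 10.4 TPM. Clone 6 was the highest of the high-Flt3 libraries for Hint3, at 7.93 TPM with the next at 5.63 TPM. Clone 20 was the lowest of the low-Flt3 libraries for Cpa3, at 262 TPM with the next at 1040 TPM; this is the clone with the highest neutrophil granule sum.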

How the results depend on the processing

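The count of 3123 genes called in progenitors kept within 1.5 times with other pseudocounts, a 5 TPM filter, rows left out and rescaled, no trend, clones 1 to 13 alone, clones 21 and 24 kept, Flt3 as a continuous term and an exact permutation test per gene (2432 to 3920). It was 56 with no filter on low values, where 25113 genes were tested. It was 0 in limma with no covariate for set (2057 at an unadjusted p under 0.05), in clones 15 to 26 alone (639), with 3 highest and 3 lowest per set (3797), with the mitochondrial share (2852) or the number of genes at 1 TPM or more (584) as covariate, and without clones 7 and 9 (2844). It was 884 with median scaling and 122 with length removed; with median scaling it was 1928 in clones 1 to 13 alone, 1 in clones 15 to 26 alone and 1327 with Flt3 continuous. Leaving out 1 clone gave 8 to 4570 as deposited and 0 to 1644 with median scaling. The cause was not tested. The test between the sets gave 0 under every other alternative run and 0 to 512 when 1 clone was left out (512 without clone 5, 47 without clone 3). The monocyte comparison and the change of state gave 0 in limma under each alternative run.

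Pairing the 2 libraries of a clone as replicate block, by the clone number in the labels, changed nothing in the count: with no replicate block the change of state gave 0 calls, as with it. Within progenitors no block was possible, since each clone has 1 library.

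Of 63 named genes called as deposited, 35 were called with median scaling, 18 with length removed and 57 in clones 1 to 13 alone. Many of these genes were named for the size of their difference or after their values were seen, so they do not stand for all calls. Among all calls as deposited, 337 of 3033 higher and 85 of 90 lower ones were also called with median scaling. With length removed 122 genes were called in all. Atp5a1 lost its call and changed sign with median scaling (-0.04; clones 1 to 13 alone -0.04, clones 15 to 26 alone -0.01, Flt3 continuous -0.01, 1 clone left out -0.07 to -0.02, against 0.25 to 0.34 with 1 clone left out as deposited) and with length removed (-0.01). With median scaling in clones 15 to 26 alone, Kit was at -0.00 (limma adjusted p = 0.996) and B2m at -0.01 (adjusted p = 0.989), values near 0 with a changed sign and no call.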
